A study of Apis mellifera with 27 samples.

Results

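The comparison set late day, 18:00 of day 11, against dawn, 06:00 of day 12, 12 h later, in mushroom body tissue of honey bee (Apis mellifera) foragers. Its 8 libraries, 4 per time point, were chosen from the time given in their labels, and they are 8 of 27 libraries of a series with 7 time points. All groups were time-trained foragers, with no other treatment given in the labels, and they came from 2 colonies whose experiments were run separately. Each time point here had 2 libraries of colony 1 and 2 of colony 2, written below as C1R1, C1R2, C2R1 and C2R2 for colony and replicate. Tissue enriched for small Kenyon cells was collected by laser capture, and its polyadenylated RNA was counted gene by gene. The labels do not tie libraries to bees, so the spread behind each p-value is that between samples, and it may be technical.

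Mushroom bodies are paired centres of the insect brain that serve learning and memory. Their intrinsic neurons, the Kenyon cells, receive much of their input through acetylcholine. The circadian clock of the bee is built on a feedback loop in which Per and the mammalian-type Cry2 repress their own transcription, and foragers use such a clock to return to food at the hour at which they learned to find it. The comparison asks which transcripts of this tissue stood at different levels at the end of the day and at dawn.

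Total counts in the 8 libraries ranged from 7906015 to 11837283, and 9110 to 10180 genes had a count. Levels are given as CPM, counts scaled to TMM-adjusted library size, and since gene length does not enter CPM, levels of different genes are not compared. On principal components of log2 CPM over the 8 libraries, 3 colony 2 libraries stood apart before any test was made. 18:00 C2R1 had a PC1 score of 66.4, 06:00 C2R2 a PC1 score of -43.2, and 18:00 C2R2 a PC2 score of -53.8. The other 5 libraries lay between -10.0 and -2.5 on PC1 and between -1.3 and 17.6 on PC2. The spread between replicates was unequal, with a biological coefficient of variation of 0.144 in colony 1 and 0.300 in colony 2. The 4 small Kenyon cell markers that could be matched by name had counts in all 8 libraries, but so did 3 markers of large and middle Kenyon cells, and no unenriched tissue was analysed here against which the enrichment could be checked.

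No gene passed the test between 18:00 and 06:00 over both colonies. Among 8935 genes tested, 0 (0%) had a Benjamini-Hochberg adjusted p under 0.05 in edgeR's quasi-likelihood test with colony as a term, and the lowest adjusted p was 0.260. An unadjusted p under 0.05 was found for 818 genes, or 9.16% of those tested. limma-voom also called 0 genes and DESeq2 called 29, of which 14 were higher and 15 lower at 18:00. The median SE of the log2 difference was 0.145 among the 7291 genes averaging at least 10 CPM. Differences several times that size were not called after adjustment, such as -0.79 in the gene LOC100578708 and 0.90 in LOC726331.

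The 4 libraries of 18:00 lay above all 4 of 06:00 in 223 genes (2.5% of those tested) and below all 4 in 224 genes (2.51%). Of these, 130 differed by at least 1.5-fold. Because no gene was called, the 6 genes with the smallest p in each direction among those averaging at least 10 CPM are described by their values. All 12 are known in the table only by LOC identifiers, with no gene name, and none of them was called by edgeR over both colonies. Their log2 differences had sizes of 0.431 to 0.898. All 12 had the same direction in both colonies, and 11 of 12 had no overlap between the time points, which follows largely from choosing them by p over the same libraries. In 11 of the 12 the difference was larger in colony 2. Log2 differences spread more widely in colony 2 (SD 0.498) than in colony 1 (SD 0.242) over genes averaging at least 10 CPM. The count is therefore not read as a trait of the 12. All 12 were among the 29 genes that DESeq2 called. DESeq2 tested the same libraries over which the 12 were chosen, so this is not separate support for them.

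LOC100578708 had the smallest p and was lower at 18:00. It measured 40.7, 37.9, 25.9 and 28.1 CPM in 18:00 C1R1, C1R2, C2R1 and C2R2, and 61.9, 58.6, 52.2 and 53.3 CPM in the same order at 06:00. Every 18:00 library was below every 06:00 library, with a log2 difference of -0.79 (SE 0.129, edgeR adjusted p = 0.260). The levels of LOC412363 were 26.3, 25.7, 30.3 and 33.6 CPM at 18:00 and 47.2, 38.0, 54.3 and 55.8 CPM at 06:00. Again the groups did not overlap, and the log2 difference was -0.75 (SE 0.131, edgeR adjusted p = 0.260). LOC725556 was at 157, 148, 129 and 138 CPM at 18:00 and at 216, 213, 214 and 300.1 CPM at 06:00, where C2R2 stood far above the other 3. Its log2 difference was -0.71 (SE 0.136, edgeR adjusted p = 0.380). LOC100578547, LOC100576366 and LOC408677 completed the lower group, with mean levels of 42.2 ± 5.84, 65.0 ± 5.88 and 88.0 ± 25.1 CPM at 18:00 and 78.7 ± 18.4, 98.05 ± 10.5 and 155 ± 28.2 CPM at 06:00 (SD, n = 4).

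LOC550998 had the smallest p of the 6 described genes that were higher at 18:00. Its 18:00 libraries measured 63.8, 62.2, 69.1 and 73.8 CPM and its 06:00 libraries 37.5, 43.4, 47.7 and 39.6 CPM, in the order C1R1, C1R2, C2R1 and C2R2. The colonies gave nearly the same difference, 0.64 on the log2 scale in colony 1 and 0.71 in colony 2, and the pooled value was 0.67 (SE 0.119, edgeR adjusted p = 0.260). LOC409281 was at 184, 185, 186 and 174 CPM at 18:00 and at 143, 129, 130.0 and 131 CPM at 06:00. The spread within each time point was small beside the gap, and the log2 difference was 0.45 (SE 0.0900, edgeR adjusted p = 0.380). For LOC552183 the values were 292, 294, 308 and 301 CPM at 18:00 and 240.2, 220.3, 212 and 214 CPM at 06:00, a log2 difference of 0.43 (SE 0.0959, edgeR adjusted p = 0.494). LOC410479 and LOC726331 were higher at 18:00 without overlap too, but by more in colony 2 (1.25 and 1.41 on the log2 scale) than in colony 1 (0.38 and 0.39). LOC100577216 was the 1 gene of the 12 whose groups overlapped. Its level differed more between colonies than between times, 61.2 and 53.9 CPM at 18:00 against 28.5 and 35.6 CPM at 06:00 in colony 1, and 136 and 146 CPM against 107 and 97.2 CPM in colony 2.

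**Figure D1:**
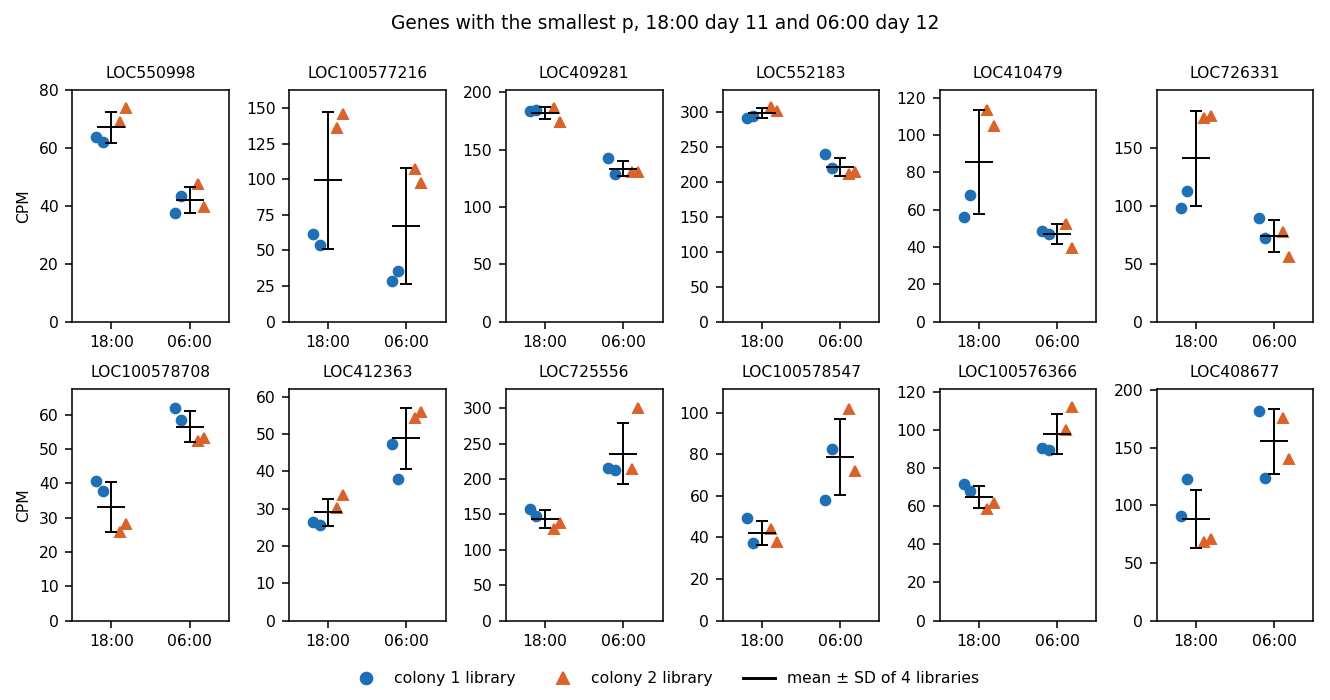
Each panel plots the level in CPM (linear axis from 0) of 1 of the 12 genes described above. These are the 6 with the smallest p in each direction among genes averaging at least 10 CPM. The 4 libraries of 18:00 day 11 and the 4 of 06:00 day 12 are drawn. Circles are colony 1, triangles colony 2, and lines the mean and SD of 4 libraries. In 11 of 12 panels the time points do not overlap; in LOC100577216 the colonies lie farther apart than the times.

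The libraries of 06:00 on day 11, which the comparison did not use, give a second dawn. In 11 of the 12 genes both colony 1 libraries of that dawn lay beyond all 4 libraries of 18:00, on the same side as the dawn of day 12. Over all genes tested, both colony 1 libraries of that dawn lay beyond all 4 of 18:00, in either direction, in 18.9%. The 18:00 libraries are shared by both dawns, so the second is not a separate comparison. LOC100578708, for example, measured 58.2 and 50.6 CPM in colony 1 at 06:00 of day 11, and LOC552183 measured 191 and 219 CPM. LOC726331 was the exception, with 111 and 82.3 CPM. The only colony 2 library of that dawn analysed here stands apart from the rest of the series, and it lay beyond all 4 of 18:00 in the day-12 direction in 7 of 12 genes. Over all genes tested it lay beyond all 4, in either direction, in 78.2%, so its count says nothing about the 12. In LOC552183 it had 527 CPM, on the opposite side.

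Both clock genes that could be matched by name, Cry2 and Per, had higher means at 18:00, but neither passed the test. Cry2 was at 17.7, 19.5, 14.3 and 19.3 CPM in 18:00 C1R1, C1R2, C2R1 and C2R2 and at 12.5, 9.12, 17.2 and 10.1 CPM at 06:00. The groups overlapped through 06:00 C2R1 alone, which lay above 18:00 C2R1. The log2 difference was 0.54 (SE 0.263, edgeR adjusted p = 0.548), with 0.78 in colony 1 and 0.30 in colony 2. In the course of the day, 18:00 and 06:00 lay on either side of the highest mean of Cry2, which was 25.0 ± 3.86 CPM at 22:00. Per measured 37.5, 33.9, 23.7 and 42.3 CPM at 18:00 and 39.99, 26.9, 26.8 and 19.2 CPM at 06:00. Its libraries of the 2 time points were intermixed, and its log2 difference was 0.31 (SE 0.225, edgeR adjusted p = 0.666).

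**Figure D2:**
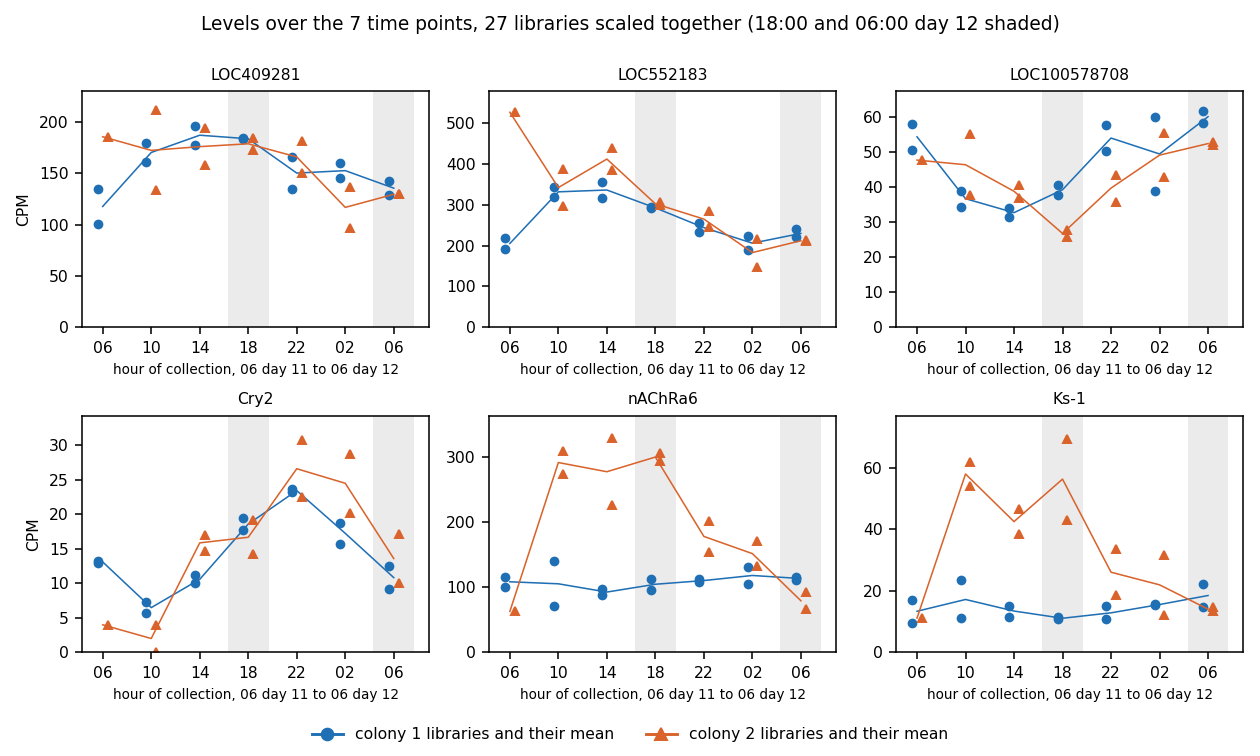
The level in CPM (linear axis from 0, 27 libraries scaled together) of 6 genes is plotted against hour of collection from 06:00 of day 11 to 06:00 of day 12; circles are colony 1, triangles colony 2, lines join colony means, and the compared time points are shaded. Cry2 has its highest mean at 22:00 in both colonies, while nAChRa6 and Ks-1 are high from 10:00 to 18:00 in colony 2 and not in colony 1.

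Across genes, the log2 differences of the 2 colonies showed almost no correlation. Each rests on 2 libraries against 2, and noise in such values weakens a correlation. Whether the colonies share a common difference therefore cannot be decided from the correlation. Over the 7291 genes averaging at least 10 CPM, the log2 difference of colony 1 and that of colony 2 had a Pearson correlation of -0.0572 and a Spearman correlation of -0.0335, as a description across genes, which are not independent replicates. The sign was the same in 3560 genes, or 48.8%. Log2 differences spread more widely in colony 2 (SD 0.498) than in colony 1 (SD 0.242). The colonies differ in their bees, in the separate running of the experiments and in the libraries that stand apart, and these cannot be told apart here.

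**Figure D3:**
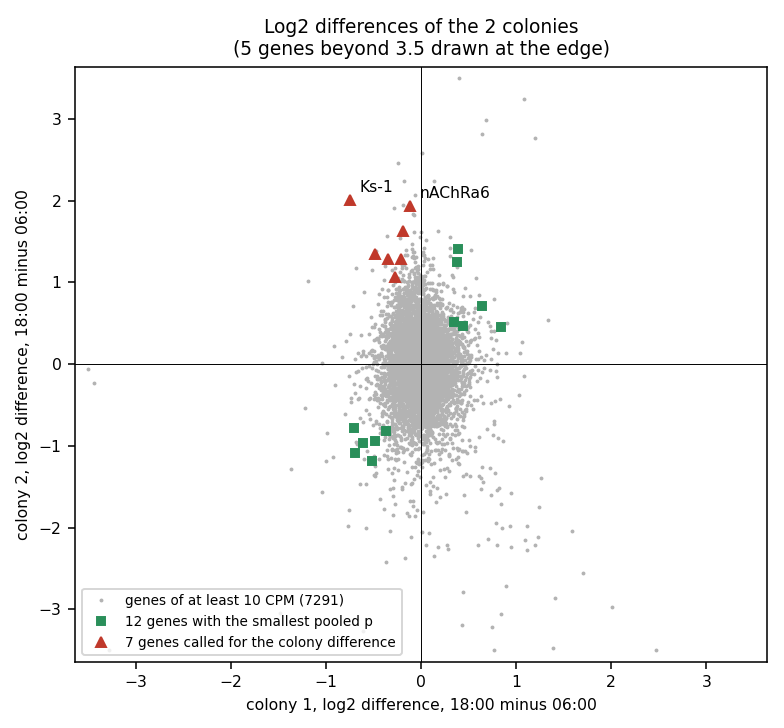
Each point is a gene of at least 10 CPM (7291 genes), with the log2 difference of 18:00 minus 06:00 in colony 1 on the x axis and in colony 2 on the y axis; 5 genes beyond 3.5 are drawn at the edge. The cloud is taller than wide. The squares are the 12 genes with the smallest pooled p, taken by direction among genes of at least 10 CPM. They lie in the quadrants of equal sign because they were chosen over both colonies. The 7 genes that differed between colonies (triangles) lie at the upper left.

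A test of the difference between the colonies called 7 genes, 0.0783% of those tested, with edgeR adjusted p from 0.0139 to 0.0469, and 1346 genes had an unadjusted p under 0.05. All 7 were higher at 18:00 in colony 2, and had a value below 0 in colony 1. In all 7, both colony 2 libraries of 18:00 lay above the other 6 libraries, an arrangement found in 12.5% of all genes tested. The 7 calls depend on single libraries. Without any 1 of the 4 colony 1 libraries 0 genes were called, without 18:00 C2R1 1 other gene, without 18:00 C2R2 31 genes, without 06:00 C2R1 1147 and without 06:00 C2R2 67.

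nAChRa6 had the smallest p for the colony difference. It encodes an alpha subunit of the nicotinic acetylcholine receptor, the channel through which acetylcholine excites insect neurons. It measured 113 and 95.7 CPM in colony 1 at 18:00 and 116 and 111 CPM at 06:00, while in colony 2 it measured 295 and 309 CPM at 18:00 and 92.2 and 66.5 CPM at 06:00. Only the colony 2 libraries of 18:00 stood out, roughly level with each other. The log2 difference was 1.93 (SE 0.168) in colony 2 and -0.12 (SE 0.162) in colony 1, and these differed by 2.05 (SE 0.232, edgeR adjusted p = 0.0139). Over the other time points nAChRa6 ranged from 62.5 to 329 CPM in colony 2, the highest at 14:00, and over all time points from 70.5 to 139 CPM in colony 1.

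Ks-1, a noncoding RNA known from Kenyon cells of the honey bee brain, showed the widest gap between colonies among the 7. It was at 11.3 and 10.7 CPM in colony 1 at 18:00 and at 14.7 and 22.1 CPM at 06:00, against 43.4 and 70.0 CPM at 18:00 and 14.6 and 13.5 CPM at 06:00 in colony 2. Its log2 difference was 2.01 in colony 2 and -0.75 in colony 1, a difference of 2.76 (SE 0.427, edgeR adjusted p = 0.0469). The other 5 genes, LOC102655737, LOC409928, LOC551086, LOC411048 and LOC409753, carry no name and had colony differences of 1.82, 1.64, 1.83, 1.34 and 1.498 on the log2 scale. LOC102655737, as an example, was at 154 and 165 CPM in colony 2 at 18:00 and between 46.6 and 77.0 CPM in the other 6 libraries.

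**Figure D4:**
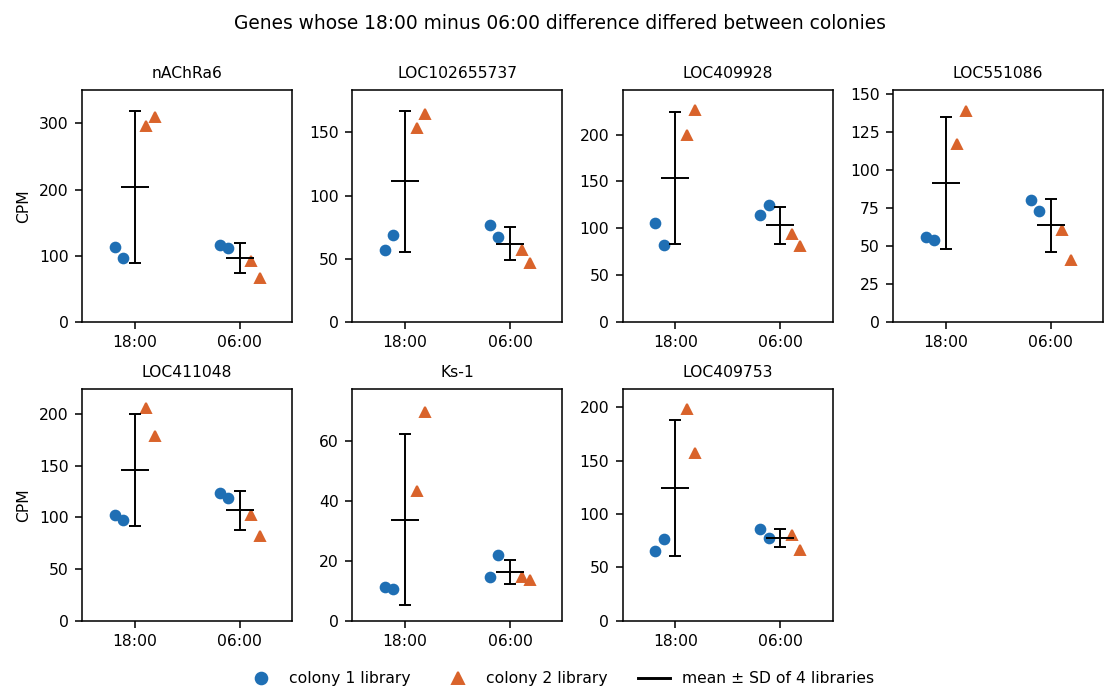
Each panel plots the level in CPM (linear axis from 0) of 1 of the 7 genes whose difference between 18:00 day 11 and 06:00 day 12 differed between colonies; circles are colony 1, triangles colony 2, and lines the mean and SD of 4 libraries. In each panel the 2 triangles at 18:00 lie above the other 6 points.

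Within colony 1 alone, 4 genes were called by edgeR (2 libraries against 2). Obp4, an odorant-binding protein, was higher at 18:00, with 30.1 and 28.4 CPM against 4.94 and 5.55 CPM (log2 difference 2.48, adjusted p = 0.00246). AGLU2, an alpha-glucosidase, was higher as well (102 and 126 against 51.7 and 45.3 CPM, log2 difference 1.24, adjusted p = 0.00431). In colony 2 both had the higher mean at 06:00, where C2R2 was far above the other libraries, with 708 CPM of Obp4 and 325 CPM of AGLU2. Apid1, which encodes the antimicrobial peptide apidaecin, was lower at 18:00 in colony 1, at 1.92 and 4.54 CPM against 26.2 and 19.6 CPM (log2 difference -2.81, adjusted p = 0.0177). In colony 2 it had 1.62 and 0.592 CPM at 18:00 and 2.13 and 4.33 CPM at 06:00, so the direction was shared at a lower level, and over both colonies the log2 difference was -2.25 (SE 0.503, edgeR adjusted p = 0.494). LOC412863 was the fourth gene, lower at 18:00 (log2 difference -0.82, adjusted p = 0.0177). With all time points of colony 1 in the fit 0 genes were called.

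Within colony 2 alone, nAChRa6, Mir2796, LOC102655737 and LOC100578739 were called, and all were higher at 18:00. Mir2796 is the locus of a microRNA, and since polyadenylated RNA was sequenced its counts are not those of the mature microRNA. It was at 68.7 and 99.3 CPM at 18:00 and at 16.8 and 18.7 CPM at 06:00 (log2 difference 2.24, edgeR adjusted p = 0.0331), and between 15.9 and 21.3 CPM in colony 1. With all time points of colony 2 in the fit 129 genes were called between 18:00 and 06:00, 92 higher and 37 lower. They included 4 of the 12 genes above, LOC726331 (edgeR adjusted p = 0.00987), LOC410479 (0.0180), LOC408677 (0.0242) and LOC725556 (0.0255). The 12 were chosen by p over libraries that include these of colony 2, so the calls are not separate support for them. Among the genes with a name, nAChRa6, Ks-1, nAChRa7, Camkii, Mblk-1, Mad, Kr, FAR1, Para, pHCl and Mir2796 were called higher at 18:00. SPG11 was called lower (log2 difference -0.98, edgeR adjusted p = 0.0255). This fit was chosen after the data were seen.

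Several lists of neuronal genes had different medians in the 2 colonies, and these differences were not tested. In the small Kenyon cell list, which holds Tk, the tachykinin gene, and the ecdysone-responsive Ecr, E74 and E75, the median log2 difference was -0.09 in colony 1 and 0.67 in colony 2. The list of large and middle Kenyon cells was at -0.20 and 1.05, synaptic release and adhesion at -0.11 and 0.61, biogenic amine receptors and synthesis at -0.09 and 0.55, and acetylcholine signalling at -0.04 and 0.49. The list of glutamate, GABA and histamine signalling ran the opposite way, at 0.12 in colony 1 and -0.23 in colony 2, and memory signalling kinases were at 0.02 and 0.10, close to each other. Such gaps were not limited to these lists. Ecdysteroid and juvenile hormone was at -0.23 and 0.44, cuticle and chitin at 0.18 and -0.52, and brain noncoding RNAs at -0.52 and 0.71. The median over all genes tested was -0.00 in colony 1 and -0.03 in colony 2. No member of any of the 23 lists was called between the time points over both colonies, and 2 members, nAChRa6 and Ks-1, were called for the colony difference.

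**Figure D5:**
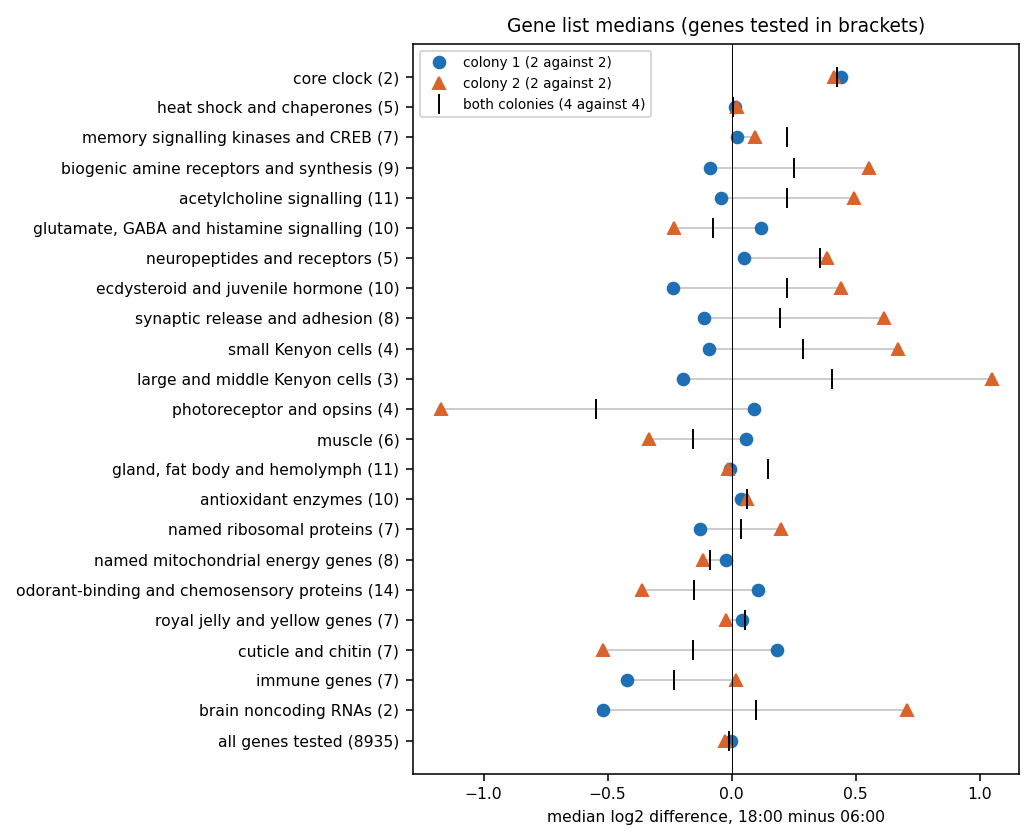
The median log2 difference of 18:00 minus 06:00 is plotted on the x axis for gene lists with at least 2 genes tested, by colony (circles colony 1, triangles colony 2) and over both (bars). The colonies lie close for chaperones and core clock. The core clock list holds only 2 genes, and their gaps ran in opposite ways. Cry2 was at 0.78 in colony 1 and 0.30 in colony 2, and Per at 0.10 and 0.52. They lie far apart for Kenyon cell, synaptic and photoreceptor lists, and also for brain noncoding RNAs, cuticle and chitin, and ecdysteroid and juvenile hormone.

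Among the Kenyon cell genes, Camkii, the calcium/calmodulin-dependent kinase required for memory formation in many animals, gave the clearest example. It was at 3999 and 3864 CPM in colony 1 at 18:00 and at 4375 and 3860 CPM at 06:00, against 6549 and 7246 CPM and then 4070 and 2492 CPM in colony 2. Colony 1 was level and colony 2 was higher at 18:00 in both libraries, but the colony difference of 1.14 (SE 0.316, edgeR adjusted p = 0.137) did not pass. Mblk-1, a transcription factor of large Kenyon cells, was at 1179 and 1180 CPM and then 1618 and 1167 CPM in colony 1, and at 2078 and 2779 CPM and then 1495 and 854 CPM in colony 2. Its colony difference of 1.29 (SE 0.361, edgeR adjusted p = 0.139) did not pass either. Within colony 2 with all its time points in the fit, both were called, Camkii with a log2 difference of 1.05 (SE 0.244, edgeR adjusted p = 0.0348) and Mblk-1 with 1.03 (SE 0.248, edgeR adjusted p = 0.0427).

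Of the 11 acetylcholine genes, 10 had a log2 difference above 0 over both colonies, against 48.3% of all genes tested, and 0 were called. The list's median was -0.04 in colony 1 and 0.49 in colony 2, so the list as a whole was not above 0 in colony 1. nAChRa4 and nAChRa9, both nicotinic subunits, were the 2 of 11 that were higher at 18:00 without overlap, against 2.5% of all genes tested. The gaps were narrow. The lowest 18:00 and highest 06:00 libraries were at 18.6 and 18.5 CPM in nAChRa4 and at 7.59 and 7.41 CPM in nAChRa9. nAChRa4 was at 22.6, 22.3, 27.4 and 18.6 CPM at 18:00 and at 15.3, 17.9, 18.5 and 12.1 CPM at 06:00, with similar log2 differences of 0.44 in colony 1 and 0.59 in colony 2 (pooled 0.51, SE 0.218, edgeR adjusted p = 0.524). nAChRa7 instead resembled nAChRa6, at 1.19 in colony 2 and -0.05 in colony 1. The naming rule also took TyrR for tyramine, 5-ht7 for serotonin, GluCl, a glutamate-gated chloride channel, and Glurb. Their pooled log2 differences were 0.46, 1.00, 0.38 and 0.35, with edgeR adjusted p from 0.558 to 0.608. In colony 1 they were at -0.09, 1.39, -0.06 and 0.03, and in colony 2 at 1.01, 0.59, 0.82 and 0.68. The 5-ht7 values rest on 1.33 to 7.01 CPM. GluCl and Glurb had the smallest p of the glutamate, GABA and histamine list. In that list 4 of 10 genes were above 0 over both colonies, with a median of -0.08. Syx1A and Syt1, which act in vesicle fusion, were at 0.35 and 0.31, with 0.71 and 0.65 in colony 2 and -0.00 and -0.02 in colony 1. The colony difference did not pass for either (edgeR adjusted p = 0.181 and 0.188).

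Markers of other cells were uneven across the colony 2 libraries, although none passed the test over time or between colonies. Lop1, the long-wavelength opsin of photoreceptors, was at 30.2 and 16.7 CPM in colony 1 at 18:00 and at 53.3 and 26.9 CPM at 06:00, and in colony 2 at 37.0 and 125 CPM and then 253 and 304 CPM (pooled log2 difference -1.30, SE 0.488, edgeR adjusted p = 0.524). Uvop, the ultraviolet opsin, had a pooled log2 difference of -0.61 (SE 0.203, edgeR adjusted p = 0.523). Summed over the 4 opsins, colony 2 measured 66.0 and 151 CPM at 18:00 and 299 and 367 CPM at 06:00, against 60.8 to 112 CPM in colony 1. The sum was mostly Lop1. Uvop alone was highest in 06:00 C1R1, at 49.9 CPM, and Lop2 was lower at 06:00 than at 18:00 in colony 2. The colony difference had an edgeR adjusted p of 0.699 for Lop1, 0.328 for Uvop and 0.198 for Eaat-2. Eaat-2, a glutamate transporter and the only glial marker that could be matched, was at 33.9 and 63.4 CPM at 18:00 and 78.3 and 121 CPM at 06:00 in colony 2, and between 51.3 and 77.7 CPM in colony 1. The 3 markers of large and middle Kenyon cells summed to 9646 and 11130 CPM at 18:00 and to 6369 and 3900 CPM at 06:00 in colony 2, and to between 5858 and 6975 CPM in colony 1. The 4 small Kenyon cell markers summed to 2976 and 2432 CPM and then 2340 and 1449 CPM in colony 2, and to between 2086 and 2383 CPM in colony 1. None of the opsin, glial or Kenyon cell markers was at 0 in any library, while 0 to 3 of 7 muscle genes were, and the muscle sum ran from 16.7 CPM in 18:00 C2R1 to 182 CPM in 18:00 C2R2. The part of the captured cell mixture in the colony 2 differences was not tested, and in such tissue samples fewer cells of a type and less RNA per cell cannot be told apart.

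Several genes with known products had differences of the same direction in both colonies without passing the test. The sign was the same in 48.8% of genes averaging at least 10 CPM, so a shared direction alone does not set these apart. Ancr-1, a noncoding RNA of bee brain nuclei, was at 2077, 1790, 1452 and 1263 CPM at 18:00 and 2342, 2383, 1772 and 2349 CPM at 06:00. Each colony was lower at 18:00, with 06:00 C2R1 overlapping the colony 1 libraries of 18:00 (log2 difference -0.45, SE 0.152, edgeR adjusted p = 0.523). Fabp encodes a fatty acid-binding protein and averaged 830 ± 240 CPM at 18:00 and 569 ± 89.2 CPM at 06:00 (SD, n = 4). Its log2 difference was 0.52 (SE 0.142, edgeR adjusted p = 0.494), with the limit that reads shared with any near-identical copy were not checked. Hsc70-3, a chaperone of the endoplasmic reticulum, averaged 692 ± 43.4 and 577 ± 45.5 CPM (log2 difference 0.26, SE 0.107, edgeR adjusted p = 0.523), and PDHB, a subunit of pyruvate dehydrogenase, 63.5 ± 9.78 and 87.0 ± 13.9 CPM (log2 difference -0.45, SE 0.147, edgeR adjusted p = 0.523). SIFR, the SIFamide receptor, had a log2 difference of 0.62 (SE 0.306) and Kr-h1, a juvenile hormone response factor, of -0.25 (SE 0.143). In colony 2 the time points were intermixed for both. SIFR was at 13.2 and 36.0 CPM at 18:00 and 14.6 and 11.5 CPM at 06:00 there, and Kr-h1 at 82.3 and 102 and then 112 and 86.0 CPM. E74 was at 0.39 (SE 0.181), with 0.05 in colony 1 and 0.73 in colony 2.

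Among the 273 tested genes that carry a symbol, 5 lay wholly above at 18:00 (CUTA, nAChRa4, Rpn1, nAChRa9 and Ing3) and 6 wholly below (egh, SPG11, IF-2mt, Tmem98, Fem and Tert). These are 1.83% and 2.2% of the genes with a symbol, no more than the 2.5% and 2.51% over all genes tested, so the counts are not a result about named genes. The names, beyond nAChRa4, were chosen after their values were seen. CUTA was at 34.8, 34.6, 47.0 and 46.5 CPM at 18:00 and at 22.4, 26.8, 28.4 and 31.9 CPM at 06:00. Colony 2 was higher than colony 1 at both times, and the log2 differences were alike, 0.49 in colony 1 and 0.63 in colony 2 (pooled 0.56, SE 0.137, edgeR adjusted p = 0.494). For egh, which in Drosophila encodes a glycosyltransferase, the log2 difference was -0.91 in colony 2 and -0.17 in colony 1, and for SPG11 -0.96 and -0.13. The colony difference did not pass for either (edgeR adjusted p = 0.179 and 0.118). SPG11 was called within colony 2 only with all time points of that colony in the fit (edgeR adjusted p = 0.0255).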

How the data were processed

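The authors deposited 1 table of raw read counts, whole numbers per gene in each of 27 libraries. Polyadenylated RNA was sequenced from a stranded kit, per the labels' protocols. Per the submitters' processing notes, the tools were Trimmomatic, FastQC, STAR, featureCounts and DESeq2, without versions. Strand setting, annotation and genome build are not given in the sources used here, and antisense and overlapping genes and near-identical copies are uncertain. Of 12319 identifiers, 12166 equalled a RefSeq symbol of Amel_HAv3.1, which was used for names alone, and 388 carried a gene symbol other than tRNA or microRNA genes. Gene and promoter sequences were not used here. All sample columns were used (0 unused).

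Counts of the 8 libraries were fitted with edgeR 4.0.16 under R 4.3.3 (filterByExpr by time point, 8935 genes holding at least 99.84% of counts; TMM; robust glmQLFit; glmQLFTest with colony as a term), two-sided, with Benjamini-Hochberg adjustment over all genes tested and a threshold of 0.05. Each SE was obtained by dividing the absolute log2 difference by the root of its F statistic. Log2 differences are 18:00 minus 06:00. The colony difference is the time by colony interaction, and each colony was also fitted alone. limma 3.58.1 and DESeq2 1.42.0 were alternatives, with other scalings, filters and sets of libraries. For principal components, log2 CPM had 2 counts added as a prior. A count of 0 allows up to 3 counts, for counting error only. Within pairs of the same colony and time the chi-square per degree of freedom was 11.8 to 38.5 over genes with at least 20 counts, so no pair was a repeat deposit. The tests were checked on simulated data.

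Genes were named by a rule: the clock genes, called genes, the 2 members of each list with the smallest p, the 3 with the smallest p for the colony difference, and, where fewer than 6 were called in a direction, the 6 with the smallest p averaging at least 10 CPM. The genes called for the colony difference beyond those 3, and those called within a colony, were named after their values were seen. The comparison and the 23 gene lists were chosen with earlier results of these data known, and lists were matched by symbol.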

Additional observations from a re-analysis of the deposited data

Results flagged for a closer look

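In 8 of 112 groups of 4 libraries (56 named genes at 2 time points), 1 library lay far from the other 3, with a gap that filled most of the group's range (Dixon's test at 95%). Chance gives such a gap in about 1 in 20 groups. At 06:00, C2R1 held 3 of them, Hsp90 at 3357 CPM, Ndufs1 at 344 CPM and Ancr-1 at 1772 CPM. C2R2 held 2, LOC725556 at 300.1 CPM and Kr-h1 at 86.0 CPM. C1R1 stood out for LOC409281 at 143 CPM and C1R2 for Ks-1 at 22.1 CPM. At 18:00, C2R2 stood out for TpnCI, a muscle troponin C gene, at 81.7 CPM.

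The difference between 18:00 and 06:00 differed between the colonies by an interaction test in 7 genes. Colony 2 exceeded colony 1 by 2.05 on the log2 scale in nAChRa6, by 2.76 in Ks-1, by 1.82 in LOC102655737, by 1.64 in LOC409928, by 1.83 in LOC551086, by 1.34 in LOC411048 and by 1.498 in LOC409753.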

How the results depend on the processing

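Between the time points 0 genes were called in 22 of 26 alternatives, among them every omission of 1 library (526 to 941 genes at an unadjusted p under 0.05). DESeq2 called 29, colony 1 alone 4, colony 2 alone 4, and colony 2 with all its time points 129; the last was added after the data were seen. The colony difference was called in 7 genes with median-of-ratios scaling, in 4 with all 27 libraries and in 396 with DESeq2. It was called in 42 genes with 24 libraries, a fit added after the data were seen. That fit left out 3 libraries that stand apart in the series, none of them among the libraries compared here. When 1 compared library was left out, the colony difference was called in 0 to 1147 genes. The cause was not tested. Replicate numbers are shared by the groups, and same-numbered libraries correlated at -0.0979 in colony 1 and 0.183 in colony 2. With 1 value per colony and no reference for it, this cannot decide whether a number marks a shared bee or day. With the replicate block 0 genes were called (625 at an unadjusted p under 0.05).

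For 56 named genes, leaving out the 2 fits of a colony with all its time points, 1242 of 1279 values kept direction and side of the threshold. Those that turned in colony 1 alone were Camkii (-0.063), TyrR (-0.082), nAChRa7 (-0.048), GluCl (-0.060), Syt1 (-0.018), Mblk-1 (-0.235), Eaat-2 (0.228), Rps14 (-0.001), Rpl41 (-0.095), CPR3 (0.077), Ks-1 (-0.746), nAChRa6 (-0.114), LOC102655737 (-0.187) and LOC409928 (-0.344). TpnCI turned with limma-voom (-0.188) and lay between -0.813 and 0.992 over the omissions of 1 library. Mrjp5 turned with limma-voom (-1.40), quality weights (-0.833) and the replicate block (-0.387), and lay between -0.421 and 1.67 over those omissions. Another 17 values became called, 14 by DESeq2, 1 in colony 1 alone and 2 in colony 2 alone; colony 2 with all its time points called 11 of the named genes. With 2 libraries per colony and time, and a larger spread in colony 2, differences up to several times the median SE are not resolved after adjustment.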

Other observations

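Genes outside the neuronal lists gave small or uneven values. The 7 ribosomal protein genes with a symbol had a median log2 difference of 0.04, with -0.13 in colony 1 and 0.20 in colony 2. The 8 mitochondrial energy genes had a median of -0.09 and the 10 antioxidant enzymes of 0.06, with 0 called in each of the 3 lists. The catalase gene Cat was at 46.2 ± 11.9 CPM at 18:00 and 38.0 ± 4.01 CPM at 06:00, and the glutathione peroxidase gene Gtpx1 at 377 ± 28.5 and 415 ± 23.3 CPM (SD, n = 4). Of the 7 immune genes tested, 1 had a log2 difference above 0, and the list's median was -0.42 in colony 1 and 0.02 in colony 2. Among them 18-w, a receptor of the Toll family, was at 53.6 ± 6.60 CPM at 18:00 and 64.4 ± 20.8 CPM at 06:00.

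Amih, the gene of a hyperpolarization-activated channel, was named after its values were seen. It had nearly equal log2 differences in both colonies, 0.40 in colony 1 and 0.43 in colony 2, with 71.6, 84.5, 95.1 and 108 CPM at 18:00 and 63.1, 55.4, 71.2 and 79.7 CPM at 06:00.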
